A study of Danio rerio with 2 samples.

Results

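The genes described here are those of the eIF4 family on the zebrafish mTOR signaling PCR array. All rows whose symbol begins with eif4 were taken, whatever their values, which gave 5 of the 84 pathway genes. They are *eif4ba* (NM_001099237), *eif4bb* (NM_214718), *eif4ea* (NM_131733), *eif4ebp1* (NM_199645) and *eif4ebp2* (NM_212803). With *hprt1*, *nono* and *rpl13a* as reference genes, none of the 5 transcripts differed between *NOD1-1IS*-/- and WT larvae past the threshold of the test. Their log2 fold changes then lay between −0.27 and 0.20. The direction of the changes, and whether a member passed, depended on the reference genes. No ratio of members to each other passed its test, whose threshold 3 replicates against 3 could not have reached.

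Translation of most capped mRNAs begins when eIF4E binds the cap at the 5′ end and joins the scaffold eIF4G and the helicase eIF4A. In mammals, the 4E-binding proteins occupy the site on eIF4E that eIF4G uses, and mTORC1 releases eIF4E by phosphorylating them. eIF4B stimulates the helicase and is itself a substrate of S6 kinase and RSK, so that both arms meet at the cap. This control acts on the proteins, whereas the array read only the amount of transcript. Zebrafish carry *eif4ba* and *eif4bb* as a pair of paralogs for eIF4B, *eif4ea* codes for a cap-binding eIF4E, and *eif4ebp1* and *eif4ebp2* code for 4E-binding proteins.

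WT and mutant larvae were compared at 10 dpf. The WT larvae were of the AB/TU background, and *NOD1-1IS*-/- larvae were homozygous for an insertion of 1 bp that Cas9/gRNA had introduced into *NOD1*, a single mutant line. The paper does not give the background of this line, so line and genotype cannot be told apart. It also reports delayed hatching and lower larval survival of the mutant, whose part in the values here was not tested. Neither genotype received a treatment. Each had 3 biological replicates, each a pool of 200 to 250 whole larvae, so fewer cells of a type and less transcript per cell cannot be told apart. Each gene was read in 1 well per replicate as a threshold cycle (Ct), the cycle at which the SYBR Green signal crosses a set level, and each cycle less means 2 times more template if every cycle doubles the product. From each Ct, the mean of the reference genes *hprt1*, *nono* and *rpl13a* in that replicate was subtracted (ΔCt), so a higher ΔCt is a lower level. Levels of different genes were not compared, as each has its own primer pair.

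All 30 wells of the eIF4 genes gave a Ct, between 19.6 and 23.1 cycles, well before the last of 40 cycles. The positive PCR control, a fixed template, differed by −0.21 cycles between *NOD1-1IS*-/- and WT, without overlap (two-sided exact permutation test, p = 0.1, the smallest that 3 against 3 allows). It was unevenly spread, at 19.25, 19.69 and 19.55 cycles in mutant replicates 1, 2 and 3, against 19.71, 19.71 and 19.70 in WT. The 24 control wells for genomic DNA and reverse transcription hold no Ct in the deposited values, so neither was checked here. The gene *nod1* is not on the plate, so the genotype was not checked by its own transcript. No list of tissue markers was tested, and the muscle actin gene *acta1b*, a reference gene of the plate that was not among the 3 used, had a mean ΔCt that was −3.29 cycles for WT, with an SD of 0.30, and −2.29 cycles for the mutant, with an SD of 0.55, and the 3 replicates of each did not overlap. Lack of overlap in ΔCt was not particular to *acta1b*, as it held for *b2m*, *hprt1*, *nono* and *rpl13a* and for 38.1% of the 84 pathway genes. The ΔCt of *hprt1*, *nono* and *rpl13a* is taken against a mean that includes them, so these 3 are not independent of each other. The mean ΔCt of *b2m*, which was not among the 3 used either, was 3.24 cycles for WT and 3.70 cycles for the mutant. The part of *acta1b* in the values of the eIF4 genes was not tested. In the RefSeq gene table of GRCz12tu, all 5 eIF4 genes lie on other chromosomes than *nod1*.

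For *eif4ba*, ΔCt was 1.97, 2.08 and 1.999 cycles in WT replicates 1, 2 and 3, and 2.16, 2.11 and 2.28 cycles in *NOD1-1IS*-/- replicates 1, 2 and 3. The 3 mutant replicates were all above the 3 WT replicates, by a margin between the nearest of them that was smaller than the SD of either group. The log2 fold change was −0.17 (standard error SE = 0.10; limma, adjusted p = 0.276 after Benjamini-Hochberg correction over 84 genes), with a 95% interval from −0.39 to 0.06, or 0.761 to 1.04 times the WT level. The other eIF4B paralog, *eif4bb*, had a ΔCt of 0.61, 0.68 and 0.50 cycles in WT and of 0.71, 0.46 and 0.68 cycles in *NOD1-1IS*-/-. Here the lowest value of all 6 belonged to mutant replicate 2 and the highest to mutant replicate 1, so the WT replicates lay inside the mutant range. Its log2 fold change of −0.02 (SE 0.11; limma, adjusted p = 0.927) was the closest to 0 in the family, and the interval from −0.27 to 0.23 leaves room for 0.828 to 1.17 times the WT level.

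The cap-binding factor gene *eif4ea* had the latest Ct of the family and the widest spread. Its ΔCt was 3.39, 3.22 and 2.75 cycles in WT and 3.52, 2.999 and 3.66 cycles in *NOD1-1IS*-/-. The genotypes overlapped, since mutant replicate 2 lay between WT replicates 2 and 3. The pooled SD of *eif4ea* within the genotypes, 0.34 cycles, was the third largest of the 84 pathway genes, against a median of 0.15 cycles over all of them. The log2 fold change of −0.27 (SE 0.20; limma, adjusted p = 0.358) was the lowest of the family, and its interval from −0.71 to 0.17 includes levels down to 0.609 times WT. The value was −0.47 without mutant replicate 2 and −0.087 without WT replicate 3, and it missed the threshold in both fits.

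The gene *eif4ebp1*, which codes for a 4E-binding protein, was the member with a positive log2 fold change. Its ΔCt was 0.86, 0.73 and 0.81 cycles in WT and 0.48, 0.58 and 0.74 cycles in *NOD1-1IS*-/-. Mutant replicates 1 and 2 were lower than any WT replicate, and mutant replicate 3 lay between WT replicates 2 and 3, so the genotypes overlapped. The log2 fold change was 0.20 (SE 0.11; limma, adjusted p = 0.224), with an interval from −0.05 to 0.44, or 0.968 to 1.36 times the WT level. For *eif4ebp2*, which codes for a second 4E-binding protein, ΔCt was 0.47, 0.22 and 0.41 cycles in WT and 0.32, 0.41 and 0.77 cycles in *NOD1-1IS*-/-. Mutant replicate 3 stood apart from the other 5 values, which were mixed. The log2 fold change was −0.14 (SE 0.14; limma, adjusted p = 0.513, interval from −0.44 to 0.17), and it was −0.0028 without mutant replicate 3.

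**Figure D1:**
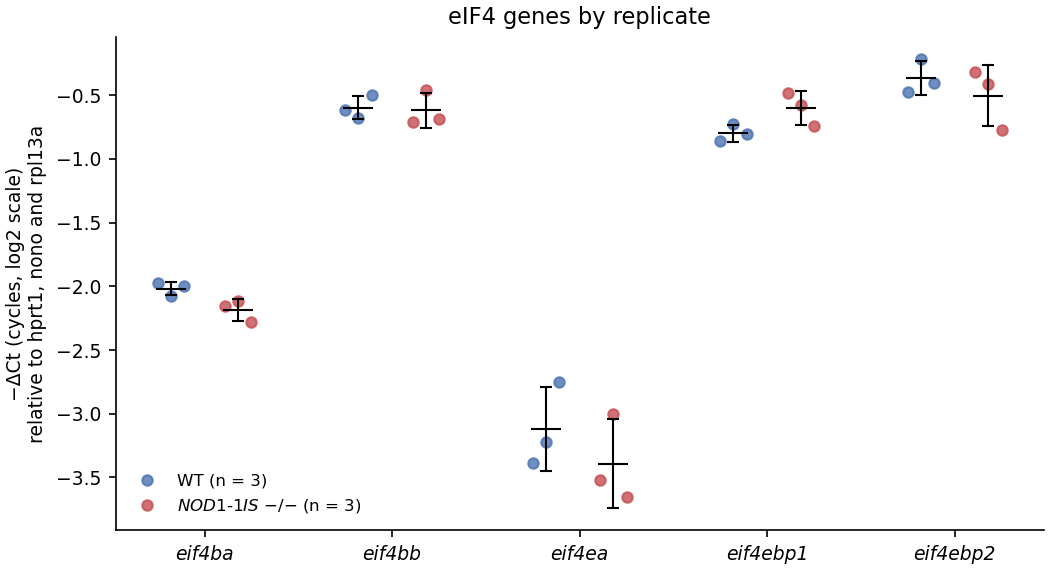
Expression of the 5 eIF4 genes in each replicate as −ΔCt in cycles, a log2 scale on which higher is more transcript, with WT in blue and *NOD1-1IS*-/- in red. Points are replicates (n = 3 per genotype), and black bars are the mean ± SD. The genotypes overlap for every gene but *eif4ba*, and *eif4ea* has the widest spread.

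Over the array, 22.6% of the 84 pathway genes passed an adjusted p of 0.05 in limma, 19.0% lower and 3.57% higher in *NOD1-1IS*-/-. This balance depended on the reference. Lower calls also outnumbered higher calls with *hprt1* alone (11.9% and 4.76%), *nono* alone, *rpl13a* alone, and *hprt1* and *rpl13a*. The same held with the 4 reference genes other than *acta1b* and with the median pathway gene. Higher calls were more frequent with all 5 reference genes of the plate (8.33% lower and 22.6% higher), *b2m* alone and *acta1b* alone. They also were with the mean of the pathway genes and on raw Ct. With the 3 reference genes used, 0 of the 5 eIF4 genes passed in either direction, and 0 had an unadjusted p under 0.05. All mutant replicates lay on the same side of all WT replicates for 1 eIF4 gene, *eif4ba* (two-sided exact permutation test, p = 0.1), whereas this held for 38.1% of all 84 genes, 28.6% lower and 9.52% higher. The median log2 fold change of the 5 genes was −0.14, and that of all 84 genes was −0.11. By rank from the lowest of the 84 log2 fold changes, *eif4ea* was at place 26, *eif4ba* at 32, *eif4ebp2* at 36, *eif4bb* at 57 and *eif4ebp1* at 73. With these reference genes, none of the 5 intervals reached a decrease to 0.5 times WT or an increase to 2 times WT, whereas all 5 reached the latter with *acta1b* as the only reference.

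**Figure D2:**
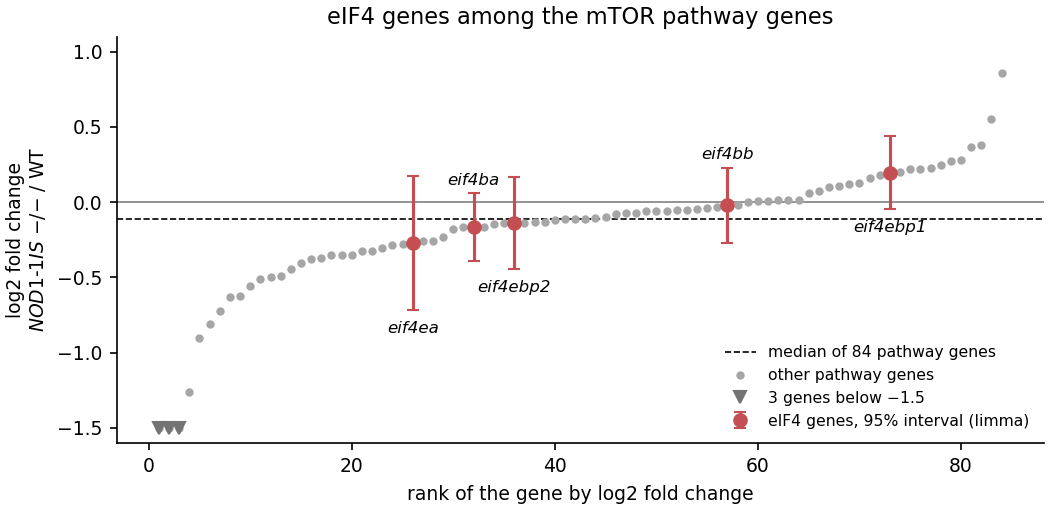
Log2 fold change of *NOD1-1IS*-/- over WT for the 84 pathway genes in order of rank, with the 5 eIF4 genes in red and their 95% intervals from limma. Triangles at the lower edge mark 3 genes below −1.5. The intervals of all 5 eIF4 genes include 0, and the dashed median of all genes, −0.11, lies within 4 of them.

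The choice of reference genes moved all members by the same amount. From WT to *NOD1-1IS*-/-, the mean Ct of the 3 reference genes changed by −0.30 cycles. Among them, *hprt1* changed by −0.19, *rpl13a* by −0.21 and *nono*, the furthest, by −0.51. In contrast, *acta1b* moved by 0.70 cycles and *b2m* by 0.16, both with overlap between the genotypes on raw Ct. With *acta1b* as the only reference, 4 members were higher past the threshold, all but *eif4ea*, in a fit that called 65.5% of all 84 genes higher. With *nono* alone, 1 member, *eif4ea*, was lower, and so were 34.5% of all genes. These fits, and that with *b2m* alone, gave all genes the same standard error. The call of *eif4ea* with *nono* alone was thus not weighed by its own wide spread. Over the main setting and 11 other references, *eif4ebp1* had log2 fold changes from −0.0064 to 1.20 and passed the threshold as higher in 5 of them, namely with all 5 reference genes (0.49, limma, adjusted p = 0.0086), *b2m* alone, *acta1b* alone, the mean of the pathway genes (0.44, adjusted p = 0.0077) and raw Ct. Of all 84 genes, 22.6%, 46.4%, 65.5%, 21.4% and 25.0% were called higher in these 5 fits, in the same order. The fit with all 5 reference genes includes both *acta1b* and *b2m*. With the 4 reference genes other than *acta1b*, *eif4ebp1* was at 0.31 and missed the threshold (limma, adjusted p = 0.0604). It also missed with the median pathway gene as reference, at 0.34 (limma, adjusted p = 0.109). On raw Ct, with no reference at all, *eif4ebp1* went from 20.4 ± 0.18 cycles (SD, n = 3) in WT to 19.9 ± 0.18 (SD, n = 3) in *NOD1-1IS*-/- without overlap. The difference was −0.50 cycles, beside −0.21 for the fixed template of the positive control, whose part in it was not tested. Raw Ct of *eif4bb* (−0.28 cycles), of the median pathway gene (−0.16) and of *hprt1*, *nono* and *rpl13a* did not overlap either. That of *eif4ba*, *eif4ea* and *eif4ebp2* overlapped. The share over all 84 genes was not counted, so lack of overlap on raw Ct is not read as a trait of these members. The sign of *eif4bb* was positive in 10 of the 11, and those of the other members also turned, so no direction of change holds across references for *eif4ba*, *eif4bb*, *eif4ea* or *eif4ebp2*. That of *eif4ebp1* turned with *nono* alone.

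**Figure D3:**
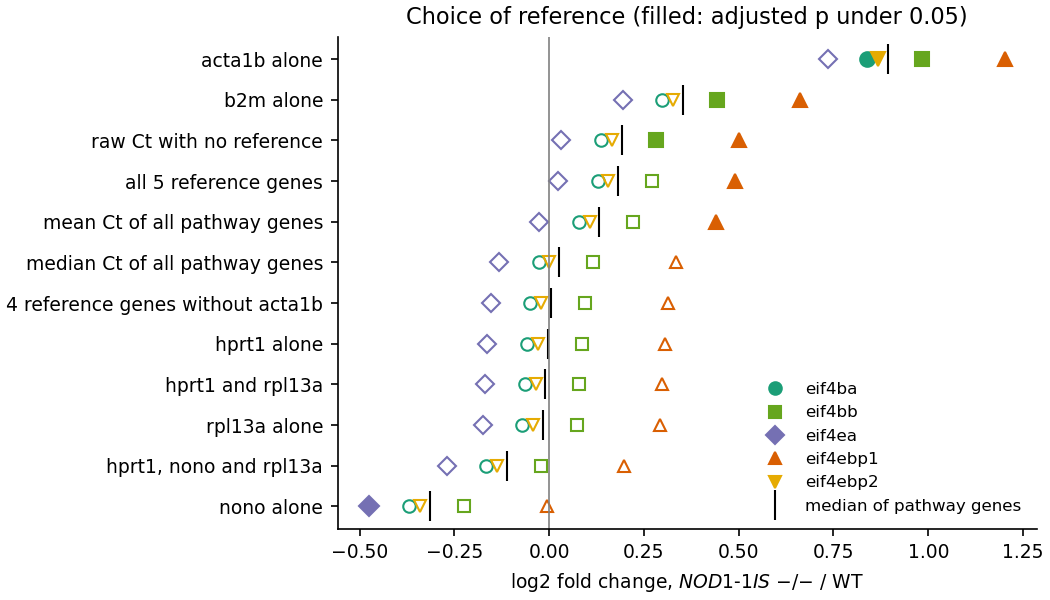
Log2 fold change of the 5 eIF4 genes under 12 choices of reference, ordered by the median of all 84 pathway genes (black ticks). Filled symbols had an adjusted p under 0.05 in limma. All symbols of a row shift together with the median, so their order is the same in every row by construction. That *eif4ebp1* is the rightmost is a measured value.

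Ratios of members to each other do not depend on the reference genes, because these cancel within a replicate. The level of a ratio still carries the difference between the primer pairs, so only its change between genotypes was read. The genotypes were compared in 10 ratios, for every pair of members, by a two-sided exact permutation test with Benjamini-Hochberg adjustment over the 10. The lowest adjusted p was 0.5, so no ratio passed the threshold, which 3 replicates against 3 could not have reached. For 2 of the 10 ratios the genotypes did not overlap, and *eif4ebp1* was part of both. Over all 3486 ratios of 2 pathway genes, this held for 45.4%, so the share among the eIF4 genes was not above that of the array.

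The log2 ratio of *eif4ebp1* to *eif4ebp2*, the pair of 4E-binding proteins, was −0.39, −0.51 and −0.40 in WT and −0.16, −0.16 and 0.03 in *NOD1-1IS*-/-. All 3 mutant replicates were above all 3 WT replicates. The ratio was 1.26 times as high in *NOD1-1IS*-/-, a log2 change of 0.33 (SE 0.075, p = 0.1 in the exact permutation test), and between 0.27 and 0.37 with each replicate left out. The log2 ratio of *eif4ebp1* to *eif4ba* was 1.11, 1.35 and 1.19 in WT and 1.67, 1.53 and 1.54 in *NOD1-1IS*-/-. Again no replicate of the genotypes overlapped, and the change was 0.36 (SE 0.084, p = 0.1 in the exact permutation test), or 1.29 times. For *eif4ebp1* over the other eIF4B paralog, *eif4bb*, the genotypes overlapped, with a change of 0.22 (SE 0.13, p = 0.3 in the exact permutation test).

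The ratio of a 4E-binding protein to eIF4E sets how much cap-binding factor can be held back, at the level of protein. At the level of transcript, the log2 ratio of *eif4ebp1* to *eif4ea* was 2.52, 2.50 and 1.95 in WT and 3.03, 2.42 and 2.91 in *NOD1-1IS*-/-. Mutant replicate 2 lay between the WT values, so that the largest change of any pair, 0.47, had an SE of 0.27 (p = 0.3 in the exact permutation test). For *eif4ebp2* over *eif4ea* the change was 0.13 (SE 0.27, p = 0.7 in the exact permutation test), with the genotypes mixed. For the eIF4B paralogs, *eif4bb* over *eif4ba*, the change was 0.14 (SE 0.075, p = 0.2 in the exact permutation test), from 1.42 ± 0.07 (SD, n = 3) to 1.56 ± 0.11 (SD, n = 3).

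**Figure D4:**
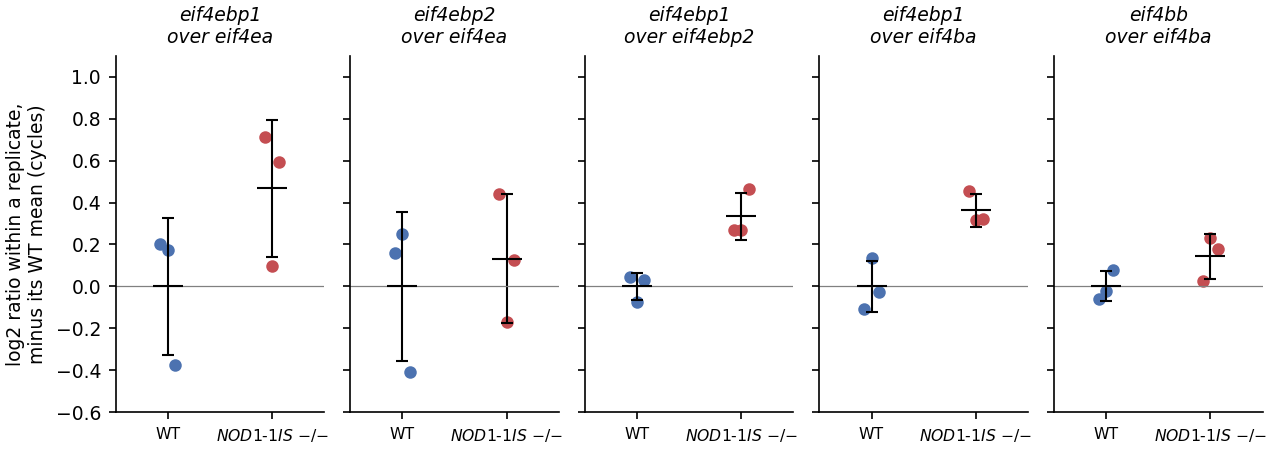
Log2 ratio of 5 pairs of eIF4 genes within each replicate, in cycles, set to 0 at the WT mean of the pair, for WT (blue) and *NOD1-1IS*-/- (red), with the mean ± SD (n = 3). The genotypes are apart for *eif4ebp1* over *eif4ebp2* and over *eif4ba*, and overlap for the other 3 pairs.

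The profile of each member over the 6 replicates, centred on its own mean, was compared with that of the other pathway genes by the root mean square difference in cycles, which describes likeness and was not tested. The nearest genes outside the family were LOC561737, listed as like the catalytic subunit alpha of PI3K, at 0.031 cycles and *hspa4b*, a heat shock protein gene, at 0.039 for *eif4ba*, and the immunophilin gene *fkbp1aa* at 0.032 and the mTORC1 activator *rheb* at 0.063 for *eif4bb*. For *eif4ebp1* they were *akt1s1* (0.060), whose product PRAS40 is another mTORC1 substrate, and the growth factor gene *vegfaa* (0.095). For *eif4ebp2* they were *vegfab* (0.067) and the Rag GTPase gene *rraga* (0.083). No gene came as close to *eif4ea*, where *igf1* at 0.169 cycles and *myo1c* at 0.187 were the nearest. The eIF4B paralogs were 0.104 cycles apart and the 4E-binding proteins 0.183, while the median distance of a member to the 83 other genes lay between 0.156 and 0.299 cycles.

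Other pathway genes of the array with a part in translation or in mTORC1 were read from lists. Of the 4 genes of S6 and its kinases, 1 was lower and 0 were higher past the threshold, against 22.6% called over the array, with a median log2 fold change of −0.16. The lower gene was *rps6ka2*, for a kinase of the RSK family, at −1.26 (SE 0.16; limma, adjusted p = 3.37e-04), whereas *rps6* itself was at 0.0069. Of the 5 genes of the mTORC1 core, *deptor*, for an inhibitor of mTOR, was lower at −0.37 (limma, adjusted p = 0.0383). The gene *mlst8*, for a subunit, was higher at 0.37 (limma, adjusted p = 0.0362). The median of the 5 was −0.05, and over the array 19.0% of genes were called lower and 3.57% higher. Over the 12 choices of reference, *rps6ka2* was lower past the threshold in 11, with values from −1.46 to −0.25, and *mlst8* was higher in 11, from 0.16 to 1.37. The call of *deptor* was made in 2 of the 12, and its values ran from −0.58 to 0.63. Those of *rps6* ran from −0.20 to 1.01, with a call as higher in 2 of the 12. Across the 12, between 3.57% and 34.5% of all 84 genes were called lower, and between 1.19% and 65.5% higher.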

How the data were processed

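Pools of WT and *NOD1-1IS*-/- larvae were compared, with 3 biological replicates each. The authors extracted RNA with TRIzol, reverse transcribed 1000 ng and ran 40 cycles on a LightCycler, and deposited raw Ct values with settings of threshold and baseline not given in the sources used here. The records hold 1 entry per genotype, and the named columns of the Ct table gave the replicates. The deposited normalized values of the authors, a linear ratio of each gene to its reference genes with 1 value per genotype, were used only to find their reference genes, which matched *hprt1*, *nono* and *rpl13a* to within 4e-07 on the log2 scale. The deposited fold changes are the authors' own comparison and were not used.

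Log2 fold changes are differences of mean −ΔCt and assume doubling in each cycle. All 84 pathway genes were fitted in limma 3.58.1 (R 4.3.3, lmFit and eBayes), with two-sided p-values corrected over the 84 by Benjamini-Hochberg, a threshold of 0.05 and no filter. The fit was tested on simulated data, with independent noise for each gene and true changes larger than those of the members in the main fit. Error shared through the reference genes was not simulated. PCR arrays have no read depth, and 3 replicates and 1 well per gene set the precision. Alternatives were other references, leaving out each replicate, a filter on late genes, ratios of mean linear values, a block for the replicate number, and a robust prior with a mean-variance trend in limma. The members, the lists and the tests were chosen with earlier results of these data known. Genes named are the members, the reference genes, the 2 nearest profiles per member and listed genes past the threshold; *rps6* was named after its value was seen. One of the gene lists is not reported here, for a reason unrelated to its values. No sequence is shown.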

Additional observations from a re-analysis of the deposited data

How the results depend on the processing

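The reference decided the sign of most members. The log2 fold changes of *eif4ba*, *eif4bb*, *eif4ea*, *eif4ebp1* and *eif4ebp2*, in this order, were 0.13, 0.27, 0.0235, 0.49 and 0.16 with all 5 reference genes, 0.30, 0.44, 0.19, 0.66 and 0.33 with *b2m* alone, 0.84, 0.98, 0.73, 1.20 and 0.87 with *acta1b* alone, 0.078, 0.22, −0.026, 0.44 and 0.11 with the mean of all pathway genes as reference, and 0.14, 0.28, 0.032, 0.50 and 0.165 on raw Ct. With *nono* alone *eif4ea* was at −0.47 and *eif4ebp1* at −0.0064. The value of *eif4bb* was 0.094 with the 4 reference genes other than *acta1b*, 0.086 with *hprt1*, 0.074 with *rpl13a*, 0.080 with both and 0.12 with the median pathway gene as reference, where *eif4ebp2* was at 0.0008. The number of members higher past the threshold of limma was 1 with all 5 reference genes, 1 with the mean of the pathway genes, 2 with *b2m* alone, 2 on raw Ct and 4 with *acta1b* alone, and the number lower was 1 with *nono* alone. Over all 84 genes, 7 were lower and 19 higher with all 5 reference genes, 9 and 18 with the mean and 9 and 7 with the median of the pathway genes, 5 and 39 with *b2m*, 7 and 21 on raw Ct, 3 and 55 with *acta1b*, and 29 and 1 with *nono*, against 16 and 3 in the report. With *hprt1*, *rpl13a*, both, or the 4 reference genes other than *acta1b*, 10 were lower and 4 or 5 higher.

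With each replicate left out, 0 members passed the threshold in any of the 6 fits, and *eif4bb* ranged from −0.101 to 0.027. Log2 changes of the ratios ranged from −0.070 to 0.26 for *eif4ba* over *eif4ea*, from −0.13 to 0.049 for *eif4ba* over *eif4ebp2* and from −0.28 to 0.071 for *eif4ea* over *eif4ebp2*, and the other 7 ratios kept their sign. Replicates of the same number did not deviate together (r across genes of −0.22, 0.09 and −0.05), so the numbers were not taken as pairs. With the replicate number as a block, 0 members and 16 of the 84 genes passed, against 19 without it. A trend with a robust prior and a filter on late genes, which removed 0 genes, changed no call or sign of a member, and ratios of mean linear values, which were not tested, changed no sign.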
